A study of Mus musculus with 6 samples.

Results

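The enzymes described here are 9 subunits of the mitochondrial tricarboxylic acid cycle, chosen by gene symbol: Cs, Idh2, Idh3a, Ogdh, Dlst, Suclg1, Sucla2, Fh1 and Mdh2. All 9 were among the 14327 genes of the expression table, and all 9 passed the filter on low values. The choice followed enzyme function and left out succinate dehydrogenase. The material was mouse hippocampal neural stem cells of postnatal day 0, grown as neurospheres (free-floating clusters of dividing stem cells) with the growth factors EGF and bFGF. There were 3 libraries labelled cKO, from mice with a conditional knockout of the lipocalin 2 receptor gene Slc22a17, and 3 libraries from wild-type (WT) mice. The sources used here do not give the promoter or Cre line behind the deletion, the mouse strain, or whether replicates are different animals. All p-values thus rest on library-to-library spread, part or all of which may be technical.

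The tricarboxylic acid cycle oxidises acetyl groups in the mitochondrial matrix and hands their electrons to the respiratory chain. Its intermediates also leave the cycle for the synthesis of lipids, amino acids and nucleotides, which dividing neural progenitors draw on. The cycle touches iron at several points: succinate dehydrogenase carries iron-sulfur clusters, and alpha-ketoglutarate, an intermediate, is a substrate of iron-dependent dioxygenases. The study concerns iron balance in the hippocampus, and the comparison asks whether transcripts of the cycle differed between libraries labelled cKO and WT.

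Values are FPKM, the number of fragments scaled to transcript length and to the sequencing depth of the library. They are given per length, but the lengths used are not named. Levels, ratios and shares set between genes below are therefore approximate. Of the 14327 genes, 11596 had a mean of at least 1 FPKM over the 6 libraries and were tested with limma on log2(FPKM + 1), Benjamini-Hochberg adjusted. Slc22a17 itself read 164, 166 and 187 FPKM for cKO-labelled libraries, against 181, 169 and 204 FPKM in WT libraries. The groups overlapped (log2 fold change -0.097, limma adjusted p = 0.707), so the label is not borne out by a loss of the target transcript, and each direction below is one between labels. The Y-linked transcripts Ddx3y and Eif2s3y summed to 43.8 to 51.2 FPKM in the libraries labelled cKO, against 0.10 and 0.07 FPKM in WT replicates 1 and 2 and 25.9 FPKM in WT replicate 3. The Y-linked level, a sign of the sex of the mice, thus ran with the label except in WT replicate 3, and in the values below the effects of sex and of the label cannot be fully told apart. The markers fixed for neural stem cells had a summed level of 3119 to 3387 FPKM in libraries labelled cKO and 3395 to 3589 FPKM in WT. Most of it was Fabp7 and Vim, while Pax6 and Hes5 were at most 12.6 and 5.57 FPKM in any library. Astrocyte markers summed to 3700 to 3964 FPKM in libraries labelled cKO and 3200 to 4186 FPKM in WT, most of it Gfap. Oligodendrocyte lineage markers summed to 378 to 426 FPKM and 424 to 505 FPKM in the same order, most of it Olig2. Neuron markers summed to 77.3 to 91.9 FPKM in libraries labelled cKO and 78.1 to 84.1 FPKM in WT, most of it Map2, while Rbfox3 and Syt1 of mature neurons were at most 0.37 and 0.17 FPKM in any library. Microglia markers reached at most 4.89 FPKM in libraries labelled cKO and 3.82 FPKM in WT, and the 3 endothelial and mural markers in the table at most 5.13 FPKM and 4.27 FPKM.

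None of the 9 cycle transcripts passed the test, at an adjusted p of 0.05 or at an unadjusted p of 0.05, and for none did the libraries labelled cKO and WT separate. Over all tested genes 3 passed the adjusted threshold (0.0259%), 12.3% had an unadjusted p under 0.05, and 17.2% had groups that did not overlap. The median log2 fold change of the 9 members was -0.016, beside -0.015 over all tested genes. Members with higher fitted values in the libraries labelled cKO numbered 3 and those with lower values 6. For 8 of the 9 the fitted level in libraries labelled cKO lay between 97.8% and 104% of WT, with 95% limma intervals that together spanned 85.7% to 116%. Idh2 was apart, at 85.3% of WT with an interval of 70.5% to 103%.

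**Figure D1:**
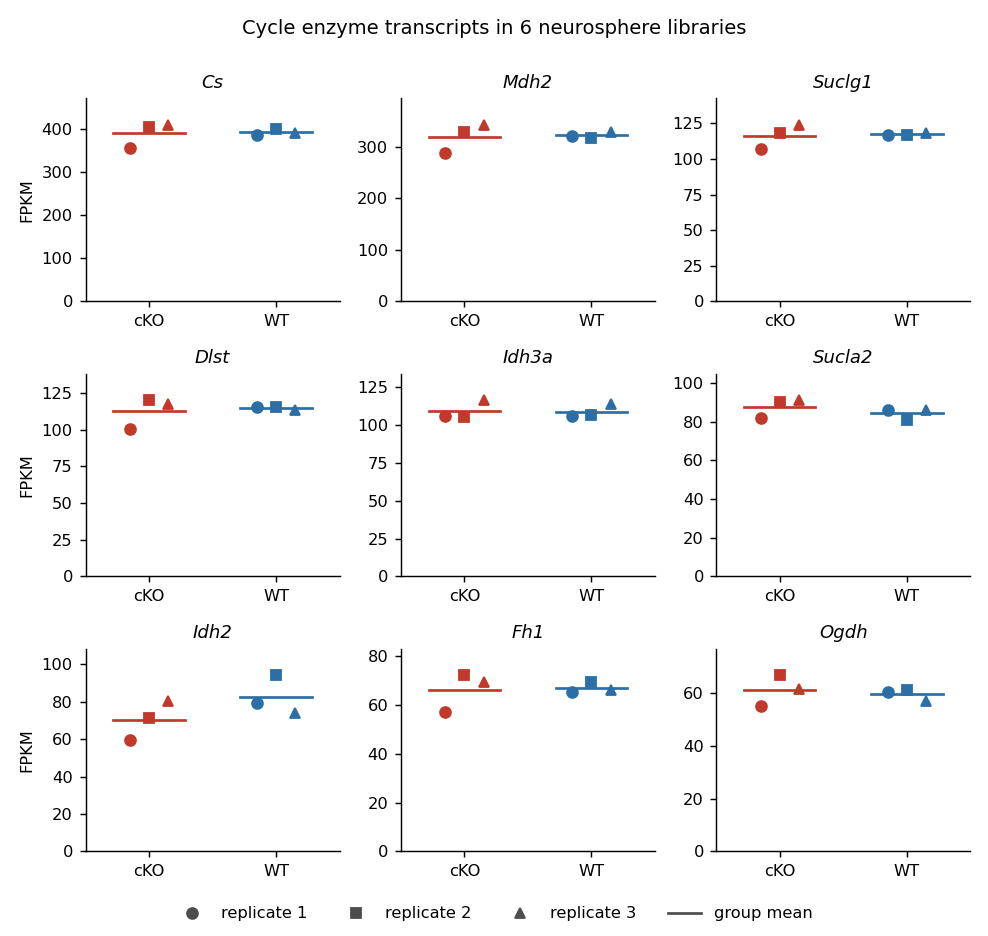
FPKM of the 9 cycle enzymes in each library, ordered by mean level, with libraries labelled cKO left of WT; symbols mark the replicate number, lines the group means, and each axis starts at 0. The groups overlap in every panel, and cKO replicate 1 (circle) is the lowest library in 7 of the 9.

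The cycle opens with citrate synthase, Cs (gene identifier 12974, chromosome 10, 128337727 to 128362482 in GRCm38), which joins acetyl-CoA to oxaloacetate. It was the most abundant member, with 356, 404 and 410 FPKM in libraries labelled cKO, against 387, 399 and 391 FPKM in WT libraries. The values of the libraries labelled cKO thus lay on both sides of a tight WT group (389.97 ± 29.5 against 392.06 ± 6.46 FPKM, SD, n = 3 each). The log2 fold change was -0.010 (SE 0.075, limma adjusted p = 0.972). At the other end of the cycle, malate dehydrogenase Mdh2 (identifier 17448, chromosome 5, 135778649 to 135790386), which regenerates oxaloacetate, had 288, 328 and 343 FPKM in libraries labelled cKO, against 321, 317 and 329 FPKM in WT libraries. Again cKO replicate 1 was the lowest library and cKO replicate 3 the highest (log2 fold change -0.016, SE 0.078, adjusted p = 0.960).

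The promoter windows of these 2 most abundant members are shown with that of Idh2, the member whose level differed most between the labels. They run from 250 bases before to 50 bases after the annotated start, 5′ to 3′ on the gene's strand, from RefSeq on GRCm38.p6. Capitals mark CCAAT boxes (CCAAT), GC boxes (GGGCGG) and the palindrome CTCGCGAG, on either strand. The Cs window is chr10:128337477-128337776 on the plus strand, the Mdh2 window chr5:135778399-135778698 on the plus strand, and the Idh2 window chr7:80115301-80115600 on the minus strand. The Idh2 window lies inside the span of the gene, 80094845 to 80118608, so its start is not the outermost end of that span.
Cs: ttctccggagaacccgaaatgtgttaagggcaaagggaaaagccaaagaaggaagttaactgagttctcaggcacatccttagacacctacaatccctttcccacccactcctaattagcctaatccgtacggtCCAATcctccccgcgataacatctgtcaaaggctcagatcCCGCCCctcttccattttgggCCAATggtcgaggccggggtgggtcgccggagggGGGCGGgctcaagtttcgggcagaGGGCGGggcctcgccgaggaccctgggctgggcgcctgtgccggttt
Mdh2: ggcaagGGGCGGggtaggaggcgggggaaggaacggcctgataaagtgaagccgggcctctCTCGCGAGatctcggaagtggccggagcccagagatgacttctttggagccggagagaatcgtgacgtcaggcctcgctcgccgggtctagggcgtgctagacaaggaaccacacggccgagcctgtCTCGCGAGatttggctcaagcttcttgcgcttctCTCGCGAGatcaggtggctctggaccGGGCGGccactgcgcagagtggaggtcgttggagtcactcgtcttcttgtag
Idh2: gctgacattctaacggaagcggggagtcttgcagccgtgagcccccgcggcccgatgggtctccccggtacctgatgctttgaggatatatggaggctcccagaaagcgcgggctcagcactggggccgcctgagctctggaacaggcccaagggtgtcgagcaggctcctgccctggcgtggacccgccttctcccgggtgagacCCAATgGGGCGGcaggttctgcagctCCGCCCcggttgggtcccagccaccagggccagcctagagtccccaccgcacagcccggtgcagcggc

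The search covered both strands of 5 motifs in windows of 300 bases, and 8 of the 9 members, all but Idh3a, matched the promoter table. The Cs window held 2 CCAAT boxes and 3 GC boxes, and the Idh2 window 1 CCAAT box and 2 GC boxes. The Mdh2 window held 3 copies of CTCGCGAG, 2 GC boxes and no CCAAT box. CCAAT occurred in 37.4% of all 32851 promoter windows of the same length and in 4 of the 8 matched members. GGGCGG occurred in 35.7% of all windows and in 7 of the 8, where Suclg1 was the member without it. CTCGCGAG occurred in 0.919% of windows and, among the members, in Mdh2. The letters ACGTG, the core of hypoxia response elements, were in 19.6% of windows and, among the members, in windows of Ogdh alone. GCGCATGCG, the core of the palindrome bound by nuclear respiratory factor 1, was in 1.75% of windows and, among the members, also in Ogdh alone. Ogdh had several annotated starts and was counted if any of its windows held the motif, so its chance of a match was higher than that of the others. These are matches of letters, not measured binding.

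Isocitrate is oxidised by 2 distinct mitochondrial enzymes. The NADP-dependent enzyme Idh2 (identifier 269951, chromosome 7, 80094845 to 80118608), a source of mitochondrial NADPH, had 59.6, 71.1 and 80.2 FPKM in libraries labelled cKO, against 79.1, 94.1 and 74.0 FPKM in WT libraries. It had the widest range of the members, with the highest library 1.58 times the lowest, and cKO replicate 3 lay above WT replicates 1 and 3, so the groups overlapped. The means were 70.3 ± 10.3 FPKM in libraries labelled cKO and 82.4 ± 10.4 FPKM in WT (SD, n = 3 each; log2 fold change -0.23, SE 0.12, unadjusted p = 0.0902, adjusted p = 0.481 in limma). Adding a covariate for Y-linked transcripts turned its sign (log2 fold change 0.087, limma adjusted p = 0.981). That covariate ran with the label except in WT replicate 3, so the estimate rests largely on this library and cannot separate sex from the label. Set against the third WT library only, Idh2 had a log2 fold change of -0.084. Without cKO replicate 1, the lowest library, it was -0.12, and without WT replicate 2, the highest, -0.13. It was -0.33 without cKO replicate 3 and -0.30 without WT replicate 3, where the unadjusted limma p was 0.0271 and 0.0480 and the adjusted p 0.384 and 0.348.

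The NAD-dependent enzyme is built around the catalytic subunit Idh3a (identifier 67834, chromosome 9, 54586511 to 54604662). It had 106, 105 and 116 FPKM in libraries labelled cKO, against 106, 106 and 114 FPKM in WT libraries. The third library was the highest in both groups, and the log2 fold change was 0.0064 (SE 0.064, adjusted p = 0.981). Its partner subunits Idh3b and Idh3g averaged 181 ± 15.1 and 185 ± 20.2 FPKM in libraries labelled cKO and 177 ± 3.56 and 192 ± 13.8 FPKM in WT, above the catalytic subunit in every library. Idh3a made up 23.0% ± 0.51 of the summed FPKM of the 3 subunits in libraries labelled cKO and 22.7% ± 0.42 in WT (SD, n = 3 each).

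The alpha-ketoglutarate dehydrogenase complex, which releases carbon dioxide and forms succinyl-CoA, consists of a dehydrogenase (Ogdh), a lipoyl-bearing succinyltransferase (Dlst) and a lipoamide dehydrogenase (Dld) shared with the pyruvate complex. Ogdh (identifier 18293, chromosome 11, 6291597 to 6359094) was the least abundant member, with 55.4, 67.0 and 61.6 FPKM in libraries labelled cKO, against 60.4, 61.4 and 57.1 FPKM in WT libraries (log2 fold change 0.036, SE 0.075, adjusted p = 0.891). Dlst (identifier 78920, chromosome 12, 85110822 to 85134091) had 101, 120 and 117 FPKM in libraries labelled cKO, against 116, 116 and 114 FPKM in WT libraries (log2 fold change -0.032, SE 0.074, adjusted p = 0.904). For both genes cKO replicate 1 was the lowest library and cKO replicate 2 the highest, and the WT libraries lay between. The ratio of Dlst to Ogdh was 1.84 ± 0.057 in libraries labelled cKO and 1.93 ± 0.053 in WT, with overlapping groups. Dld averaged 89.2 ± 5.13 FPKM in libraries labelled cKO and 90.1 ± 0.66 FPKM in WT (adjusted p = 0.948). Ogdhl, a brain-enriched paralogue of Ogdh, was at a level like that of Ogdh, at 71.8 ± 2.29 FPKM in libraries labelled cKO and 66.2 ± 6.04 FPKM in WT (adjusted p = 0.559).

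Succinyl-CoA synthetase, which makes ATP or GTP without the respiratory chain, pairs the common alpha subunit Suclg1 with the ATP-specific beta subunit Sucla2 or the GTP-specific Suclg2. Suclg1 (identifier 56451, chromosome 6, 73248505 to 73276907) had 107, 118 and 124 FPKM in libraries labelled cKO, against 117, 117 and 118 FPKM in WT libraries. The libraries labelled cKO lay below, among and above the WT libraries, which were close together (log2 fold change -0.016, SE 0.066, adjusted p = 0.953). Sucla2 (identifier 20916, chromosome 14, 73552786 to 73596144) had 81.8, 90.1 and 91.2 FPKM in libraries labelled cKO, against 86.1, 81.0 and 85.9 FPKM in WT libraries (log2 fold change 0.054, SE 0.063, adjusted p = 0.786). Here cKO replicates 2 and 3 were the highest libraries and WT replicate 2 was the lowest. Suclg2 averaged 33.5 ± 2.72 FPKM in libraries labelled cKO and 33.7 ± 0.95 FPKM in WT. The beta subunits together nearly matched the alpha subunit, with a summed beta to alpha ratio of 1.10, 1.02 and 1.01 in libraries labelled cKO, against 1.02, 0.981 and 1.02 in WT libraries.

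Fumarase, Fh1 (identifier 14194, chromosome 1, 175601378 to 175625635), hydrates fumarate to malate, and had 56.8, 72.1 and 69.5 FPKM in libraries labelled cKO, against 65.3, 69.1 and 65.9 FPKM in WT libraries. As with Cs, cKO replicate 1 was below every WT library and the other libraries labelled cKO above every WT library (log2 fold change -0.020, SE 0.089, adjusted p = 0.956). The coefficient of variation of Fh1 was 12.4% among libraries labelled cKO and 3.07% among WT. Of the 9 members, 8 had a larger SD in the libraries labelled cKO than in WT, Idh2 being the exception. This difference in spread was not tested.

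**Figure D2:**
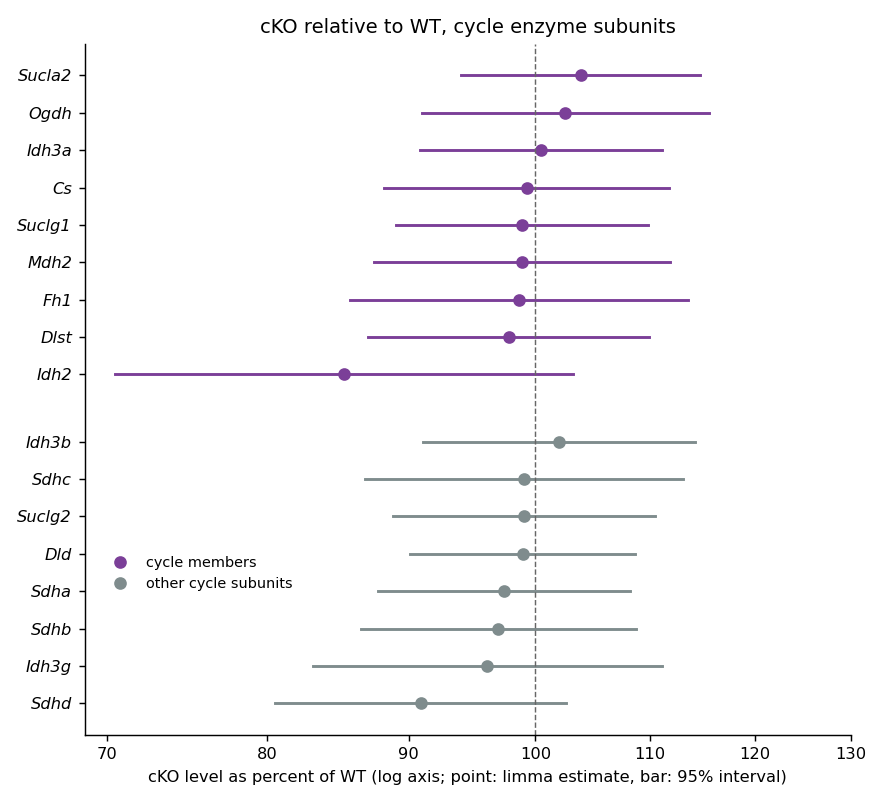
Level in libraries labelled cKO as a percent of WT (log axis) for the 9 members and 8 other subunits of the cycle; points are limma estimates on the log2(FPKM + 1) scale and bars their 95% intervals. All 17 bars cross 100%, and Idh2 lies lowest, at 85.3%.

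Ordered by level over all 6 libraries, Cs (391 FPKM) was above Mdh2 (321 FPKM), and Mdh2 was 2.75 times the next member. Suclg1, Dlst and Idh3a followed at 117, 114 and 109 FPKM, and neighbours in this order overlapped. Suclg1 was above Dlst in 5 of the 6 libraries and Dlst above Idh3a in 4, so the place of Dlst is not resolved. Sucla2 stood below them at 86.0 FPKM, with no overlap with Idh3a. Sucla2, Idh2, Fh1 and Ogdh, at 86.0, 76.3, 66.5 and 60.5 FPKM, overlapped each with its neighbour, although Fh1 was above Ogdh in all 6 libraries. Cs was 6.37 ± 0.31 times Ogdh in libraries labelled cKO and 6.58 ± 0.23 times in WT (SD, n = 3 each).

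The members varied together in 1 library. In cKO replicate 1 all 9 members were below their WT mean, by 0.038 to 0.45 on the log2 scale with a median of -0.14, and that library was the lowest of the 6 for 7 members. Among all tested genes, 20.7% were lowest in cKO replicate 1, and the median deviation from the WT mean was -0.011. The low values were not particular to the members: of the 8 other cycle subunits, 7 were below their WT mean in that library, with a median of -0.11. In cKO replicates 2 and 3 the median deviation of the members was 0.045 and 0.063, and 2 and 1 of the 9 were below the WT mean. In WT replicates 1 to 3 the median was -0.0058, 0.010 and -0.0055. The summed FPKM of the 9 members was 1211, 1376 and 1412 in libraries labelled cKO, against 1337, 1361 and 1349 in WT libraries. Without cKO replicate 1, Cs, Dlst, Suclg1, Fh1 and Mdh2 changed sign, to log2 fold changes between 0.043 and 0.084, and the median of the members was 0.054. No member passed in that comparison. In whole cultures, fewer cells of a type and less RNA per cell cannot be told apart.

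**Figure D3:**
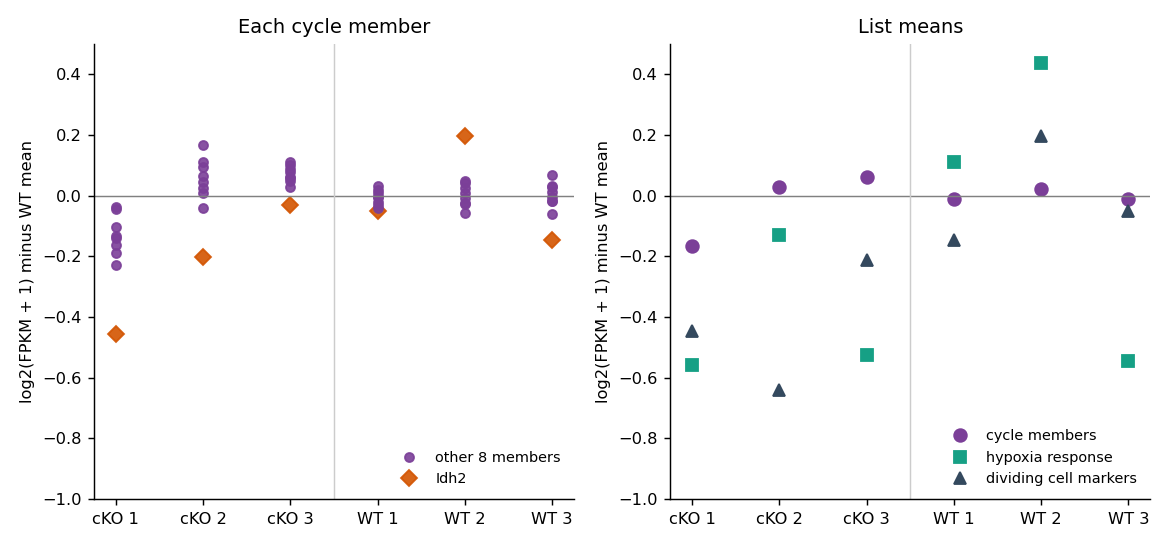
Left, deviation of each member from its WT mean in log2(FPKM + 1), with Idh2 as diamonds; right, mean deviation of the 9 members, of 17 hypoxia response genes and of 10 dividing cell markers. All members are below 0 in cKO replicate 1, while the hypoxia response mean is highest in WT replicate 2 and lowest in cKO replicate 1.

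Other lists moved over the same libraries. The 17 hypoxia response genes had a mean deviation from WT of -0.56, -0.13 and -0.53 on the log2 scale in libraries labelled cKO, against 0.11, 0.44 and -0.55 in WT libraries, and the 10 dividing cell markers -0.45, -0.64 and -0.21, against -0.15, 0.20 and -0.051. Idh2 was highest in WT replicate 2, as were the means of both lists. It was lowest in cKO replicate 1, as was the hypoxia mean by a small margin. By its median (-0.58) the hypoxia list was lowest in cKO replicate 3. Among all tested genes, 26.4% were highest in WT replicate 2 and 20.7% lowest in cKO replicate 1. The hypoxia mean was about equally low in cKO replicate 1, cKO replicate 3 and WT replicate 3. In these libraries, in that order, the mean deviation of the 9 members was -0.17, 0.060 and -0.012. The deviation of Idh2 was -0.45, -0.032 and -0.15 in the same order. All 10 dividing cell markers had lower fitted values in libraries labelled cKO. Each had an unadjusted limma p under 0.05, beside 12.3% of all tested genes in either direction. For 7 of the 10 the groups did not overlap, beside 17.2% of all tested genes in either direction. No marker passed (limma adjusted p = 0.209 to 0.335). None of the hypoxia genes passed, and the 3 of lowest p, Hilpda, Car12 and Adm, averaged 12.6, 1.91 and 39.0 FPKM in libraries labelled cKO and 19.1, 3.00 and 57.9 FPKM in WT (limma adjusted p = 0.126, 0.194 and 0.257). The part of hypoxia response or cell division in the values of Idh2 or of the other members was not tested.

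Isoenzyme shares were compared with exact two-sided permutation tests over the 6 libraries, where 0.1 is the smallest p that 3 against 3 can give. Idh2 supplied 33.8%, 37.8% and 40.1% of the summed FPKM of Idh2 and its cytosolic counterpart Idh1 in libraries labelled cKO, against 42.3%, 45.2% and 39.6% in WT libraries. The difference of -5.12 percentage points gave an exact permutation p of 0.2 (0.4 adjusted over the 4 shares), with cKO replicate 3 just above WT replicate 3. The difference was -3.39 points without cKO replicate 1 and -2.38 points against the third WT library only. Mdh2 made up 57.5% ± 1.47 of the malate dehydrogenases Mdh2 and Mdh1 in libraries labelled cKO and 59.0% ± 0.52 in WT (exact permutation p = 0.2, adjusted 0.4), a difference of -1.55 points that was -0.80 points without cKO replicate 2. Sucla2 made up 72.3% ± 2.61 of the beta subunits in libraries labelled cKO and 71.4% ± 0.81 in WT (exact permutation p = 0.6, adjusted 0.6). The share of Idh3a differed by 0.27 points, less than the SD of either group (exact permutation p = 0.5, adjusted 0.6). The cytosolic enzymes Idh1 and Mdh1 averaged 118 ± 1.62 and 236 ± 22.7 FPKM in libraries labelled cKO and 112 ± 3.14 and 224 ± 9.17 FPKM in WT (limma adjusted p = 0.609 and 0.766).

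**Figure D4:**
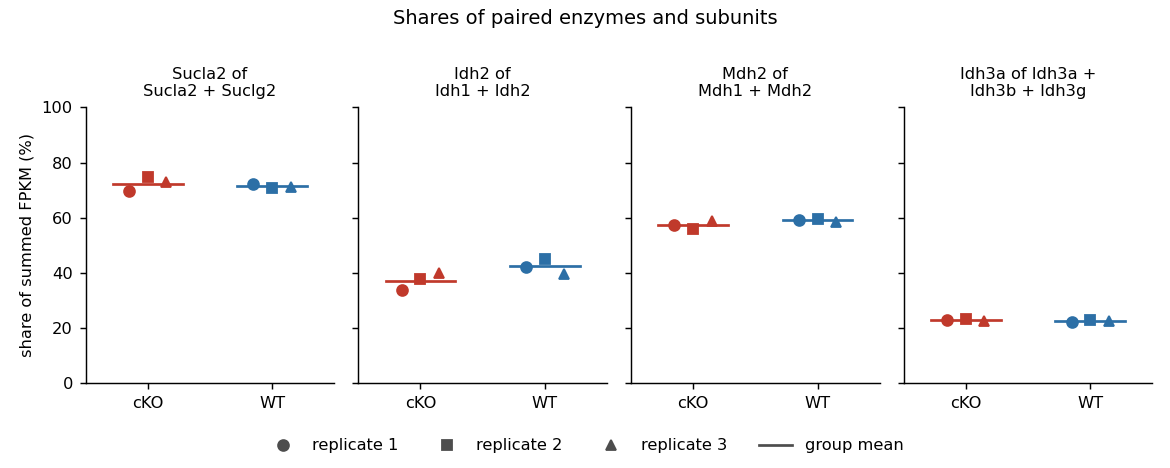
Share of summed FPKM, in percent, of the mitochondrial or ATP-specific member in each enzyme pair and of Idh3a in its enzyme, with libraries labelled cKO left of WT; symbols mark the replicate number and lines the group means. The groups overlap in all 4 panels, and the Idh2 share spans 33.8% to 45.2%.

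The 8 other cycle subunits that were listed gave no call either. Among 7 ratios of subunits and enzymes, chosen after values were seen, 1 separated the groups: Dlst over the sum of Ogdh and Ogdhl, at 0.846 ± 0.052 in libraries labelled cKO and 0.915 ± 0.040 in WT. Dlst over Ogdh alone overlapped, and among all tested genes, taken singly, 17.2% had groups that did not overlap. Succinate dehydrogenase, the enzyme shared with the respiratory chain, showed its flavoprotein Sdha at 281 ± 17.2 FPKM in libraries labelled cKO and 288 ± 2.91 FPKM in WT, and its iron-sulfur subunit Sdhb at 151 ± 11.8 and 155 ± 5.94 FPKM in the same order. The membrane anchors Sdhc and Sdhd averaged 269.8 ± 27.6 and 103 ± 9.48 FPKM in libraries labelled cKO and 271 ± 8.35 and 113 ± 4.53 FPKM in WT. Sdhd had the lowest p of these subunits (log2 fold change -0.14, adjusted p = 0.505).

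Among the 14 genes of pyruvate entry none passed. Mpc1, a subunit of the mitochondrial pyruvate carrier, had 150, 146 and 156 FPKM in libraries labelled cKO, against 122, 112 and 133 FPKM in WT libraries (log2 fold change 0.31, SE 0.072, unadjusted p = 0.00250, adjusted p = 0.223 in limma). It was the only 1 of the 14 whose groups did not overlap, beside 17.2% of all tested genes. Its partner Mpc2 averaged 54.4 ± 5.40 FPKM in libraries labelled cKO and 51.2 ± 4.75 FPKM in WT, and was named after its values were seen. Pyruvate carboxylase, Pcx, which makes oxaloacetate from pyruvate, averaged 82.6 ± 11.6 FPKM in libraries labelled cKO and 67.0 ± 3.50 FPKM in WT (unadjusted p = 0.0186, adjusted p = 0.301 in limma), and cKO replicate 1 lay below WT replicate 2. Pdk2, a kinase that inhibits pyruvate dehydrogenase, averaged 60.1 ± 4.87 FPKM in libraries labelled cKO and 54.7 ± 2.95 FPKM in WT (adjusted p = 0.503).

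The 10 cytosolic and side enzymes likewise gave no call, and the groups did not overlap for 2 of them, Glud1 and Idh1, a share close to the 17.2% of all tested genes. Glutamate dehydrogenase, Glud1, which feeds alpha-ketoglutarate into the cycle, had 330, 341 and 361 FPKM in libraries labelled cKO, against 303, 295 and 316 FPKM in WT libraries (log2 fold change 0.18, SE 0.066, unadjusted p = 0.0278, adjusted p = 0.337 in limma). The mitochondrial transaminase Got2 averaged 131 ± 12.6 FPKM in libraries labelled cKO and 142 ± 6.41 FPKM in WT, and malic enzyme Me2 11.9 ± 2.38 and 13.9 ± 0.71 FPKM in the same order (adjusted p = 0.596 and 0.509). In both, as in most cycle members, cKO replicate 1 was the lowest library.

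The genes outside these lists whose profile over the 6 libraries lay closest to the mean profile of the members were Atp5a1, Lrrc41 and Prdx5. Their root mean square differences from it were 0.014, 0.015 and 0.017 on the log2 scale, beside a median of 0.12 over all tested genes. The members themselves, which enter that mean profile, ranged from 0.011 for Cs to 0.15 for Idh2. Atp5a1, a subunit of ATP synthase, had 460, 529 and 529 FPKM in libraries labelled cKO, against 509, 532 and 511 FPKM in WT libraries. Because the genes were picked for a profile like that of the members, a low value in cKO replicate 1 follows from the choice.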

How the data were processed

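The deposited table holds FPKM values, with a row per gene and a column per library, per the file headers. Per the labels' protocols, libraries were made and analysed by a BGISEQ service from column-extracted total RNA, and the submitters' processing notes name Bowtie2 and GRCm38 (mm10). The sources used here name no counting tool, annotation, transcript lengths or filters. FPKM keeps no read totals: a search for steps worth 1 fragment in low values made at best 37.2% to 52.8% of them whole (tolerance 0.1 fragment) at depths that disagreed between libraries, so depth is unknown and no count test was run.

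Columns were matched to samples by group and number. Genes averaging 1 FPKM or more were tested as log2(FPKM + 1) with limma 3.58.1 in R 4.3.3 (intensity trend, two-sided, Benjamini-Hochberg over all 11596 genes, threshold 0.05), after a check on simulated data. Fold changes on this scale understate those of low genes. Members, lists and tests were chosen with earlier results of these data known. Named genes are the members, their partner subunits and isoenzymes, the 3 genes of lowest p in each wider list, and the 3 nearest profiles. Some named genes are not reported here. Slc22a17 is named by the design. Mpc2, Ddx3y, Eif2s3y and the markers Fabp7, Vim, Pax6, Hes5, Gfap, Olig2, Map2, Rbfox3 and Syt1 are exceptions. No other gene of GENCODE M21 (GRCm38) had exons overlapping a member's, and BLAST 2.17.0 found none sharing 200 bases at 95% identity. Alternatives were pseudocounts, filters, scaling, variance models, weights, a replicate block, leaving out libraries and a Y-linked covariate. Figures were drawn with matplotlib 3.10.9.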

Additional observations from a re-analysis of the deposited data

How the results depend on the processing

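No member passed the adjusted threshold under any of the 18 alternatives, where the lowest adjusted p of a member was 0.343 (Idh2 with the replicate number as a block). The log2 fold change of Idh2 ranged from -0.33 to 0.087 over them and was negative in 17. The exception, 0.087, came from the covariate for Y-linked transcripts, which ran with the label except in WT replicate 3. The number of genes past the threshold, 3 in the comparison as reported, was 0 with no filter, with quantile normalization, without the intensity trend, against WT replicate 3 alone and with the covariate, where 1610, 1473, 1381, 418 and 549 genes had an unadjusted p under 0.05. It was 129 with library weights, 22 with the replicate block and 0 to 10 without 1 library (0 without cKO replicate 1 or WT replicate 1, 1 without cKO replicate 2 or 3, 2 without WT replicate 2 and 10 without WT replicate 3).

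The median of the members turned to 0.010 with median scaling, 0.0084 with quantile normalization, 0.026 with library weights and 0.028 with the covariate, and was -0.059 to 0.054 without 1 library. Of 162 member fold changes under the alternatives, 27 changed sign. With median scaling Cs was 0.016, Suclg1 0.010, Fh1 0.0060 and Mdh2 0.0099, with quantile normalization Cs 0.0084 and Mdh2 0.035, and with weights Cs 0.026, Suclg1 0.013, Fh1 0.031 and Mdh2 0.015. Against WT replicate 3 alone Idh3a was -0.062, and with the covariate Ogdh was 0.24 (0.036 as reported), Cs 0.028, Idh3a -0.17, Dlst 0.056 and Fh1 0.088. Without 1 library, Cs spanned -0.047 to 0.054, Idh3a -0.040 to 0.041, Ogdh -0.029 to 0.11, Dlst -0.080 to 0.046, Suclg1 -0.063 to 0.043, Fh1 -0.085 to 0.084, Mdh2 -0.068 to 0.056 and the shares, in percentage points, -0.26 to 2.32 for Sucla2, -6.56 to -3.39 for Idh2, -2.27 to -0.80 for Mdh2 and 0.038 to 0.54 for Idh3a. The cause was not tested.

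Replicate numbers are shared by the groups, but no label says that they pair samples. Deviations of same-numbered libraries correlated at -0.043, 0.30 and 0.26 across genes. By this measure cKO replicate 1 was most like WT replicate 3, while cKO replicates 2 and 3 were most like the WT library of the same number. As no label states a pairing, the block is given as an alternative only. FPKM without read totals limits the precision to the spread between 3 libraries a group.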

Other observations

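Genes outside the cycle that mark mitochondrial content or support its enzymes also gave no call. Of 14 tested content genes 10 had lower and 4 higher fitted values in libraries labelled cKO. Their median was -0.017 on the log2 scale, close to the -0.015 over all tested genes. The outer membrane channel Vdac3 averaged 113 ± 4.52 FPKM in libraries labelled cKO and 122 ± 3.77 FPKM in WT (SD, n = 3 each), without overlap of the groups (limma adjusted p = 0.489). It was the only 1 of the 14 without overlap, beside 17.2% of all tested genes. The mitochondrial DNA polymerase Polg averaged 23.6 ± 1.53 and 25.0 ± 1.10 FPKM, and the transcription factor Nrf1 8.64 ± 0.54 and 9.38 ± 0.59 FPKM, in the same order (adjusted p = 0.668 and 0.616).

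Among 10 listed genes of assembly and cofactors none passed. Sdhaf1, an assembly factor of succinate dehydrogenase, averaged 20.6 ± 0.72 FPKM in libraries labelled cKO and 22.3 ± 0.62 FPKM in WT, without overlap of the groups (adjusted p = 0.476). It was the only 1 of the 10 without overlap, beside 17.2% of all tested genes.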
